A study of Homo sapiens with 6 samples.

Results

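The protein part of the cytosolic ribosome was followed by RNA-seq in JHH-4, an established line of human liver cancer cells with an epithelial-like form. The genes were taken by name: every row of the deposited count table with an RPL or RPS symbol, with or without a closing A, X or L, together with the stalk genes RPLP0, RPLP1 and RPLP2 and the laminin receptor gene RPSA. This gave 82 of the 12396 named genes. They comprised 43 genes of the large subunit, 31 of the small subunit, 3 of the acidic stalk and 5 paralogs, which are RPL7L1, RPL10L, RPL22L1, RPL26L1 and RPS27L. The miR372_3p group held 3 libraries of JHH-4 cells in which a plasmid coding for the primary transcript drove overexpression of hsa-miR-372-3p. The Control group held 3 libraries of JHH-4 control cells; the sources used here do not say what the controls carried, and both groups bear the genotype label WT. The series calls the replicates technical, so the p-values measure only the spread between these libraries. The series title names fatty acid metabolism as its subject, and the ribosome is not mentioned there.

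A ribosome is built from ribosomal RNA and one or a few copies of each ribosomal protein, so the cell needs these proteins in matched amounts. Their messenger RNAs are among the most abundant in a growing cell. Most begin with a cytosine followed by a run of pyrimidines, the terminal oligopyrimidine or TOP motif, through which the kinase mTOR and the RNA-binding protein LARP1 control their translation and stability as a group. Excess ribosomal proteins are degraded, and some of them, RPL5 and RPL11 above all, can bind the ubiquitin ligase MDM2. miR-372-3p acts through pairing of its seed, bases 2 to 8, with short matching sites, mostly in 3′ UTRs.

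The sequence of the microRNA is shown first because the search for its sites rests on the seed, given in capitals (RefSeq, GRCh38.p14, chr19:53787931-53787953, plus strand).
hsa-miR-372-3p: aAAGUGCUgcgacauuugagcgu

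The next sequences show the start of transcription in 8 of the genes, from 12 bases before the RefSeq start to 18 bases from it, with the pyrimidine run that opens the transcript in capitals (GRCh38.p14). RPS12 and RPLP1 had the widest spread among the controls, RPL18 rose, RPL35 and RPL22 fell, and RPL22L1, RPL7L1 and RPS27L are paralogs.
RPS12 (chr6:132814557-132814586, plus strand): tgcggatgaggcCTCTTTCCCTgccgccgc
RPLP1 (chr15:69452806-69452835, plus strand): taggcgcgagagCCCCTTTCCTCagctgcc
RPL18 (chr19:48619161-48619190, minus strand): ccagcccgttctCTCTTTCCggacctggcc
RPL35 (chr9:124861940-124861969, minus strand): cccgcctacttcCTCTTTCCCTCggagcgg
RPL22 (chr1:6199578-6199607, minus strand): ttcgctcacctcCCTTTCTaactccgctgc
RPL22L1 (chr3:170870178-170870207, minus strand): ggccgtagcttcCTCTCTgctctcgcggcc
RPL7L1 (chr6:42879604-42879633, plus strand): aagtgcggcgccgtagctaggagcggacgc
RPS27L (chr15:63157460-63157489, minus strand): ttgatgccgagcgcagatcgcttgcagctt

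Of the 82 genes, 67 had a promoter in the RefSeq table used. A start with C followed by at least 4 more pyrimidines was present in 47 of these 67 (70.1%), against 697 of 9784 other genes (7.12%). The run was found in genes that rose and in genes that fell, as the sequences of RPL18, RPL35, RPL22 and RPL22L1 show, and it was missing at the starts of the paralogs RPL7L1, RPL10L, RPL26L1 and RPS27L. Among the 47 genes with the run 5 rose and 3 fell, and among the 20 without it 7 rose and 3 fell, where 26.8% of all genes rose and 27.7% fell (edgeR, adjusted p below 0.05). Without Control replicate 3, 27 of the 47 (57.4%) rose and 6 fell, and 11 of the 20 (55.0%) rose and 4 fell, where 28.6% of all genes rose and 28.7% fell. In the window from 250 bases before to 50 after the start, on either strand, CTTCCG was present in 62.7% of the members against 38.7% of other genes, and CTTTCC in 46.3% against 33.0%. TATAAA was present in 10.4% against 8.43%, and AAGATGG in 13.4% against 9.72%. These are matches of letters and not mapped sites.

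The libraries held 48325676 to 61699567 counts, with the overexpression libraries the deeper ones. Principal component analysis of all genes placed the groups apart on the first component (72.5% of the variance). On the second (10.2%), Control replicate 3 lay at 22.0 and the other two controls at −14.5 and −7.27. The share of counts from mitochondrially encoded genes was 5.91, 6.30 and 5.93% in overexpression replicates 1 to 3 and 5.60, 6.55 and 4.62% in Control replicates 1 to 3. Keratins KRT8 and KRT18, of epithelial cells, and 4 of 9 other liver markers searched were measured and each was called, while ALB, AFP, APOA1, TF and HNF4A were not among the rows analysed. KRT8 (log2 fold change 0.93 ± 0.0333), KRT18 (1.31 ± 0.0523), FGA, FGB and FGG rose, and SERPINA1 fell by 2.35 ± 0.169 on the log2 scale. Of 10 markers of blood, endothelial, stromal and other cells, 4 were measured (CD68, COL1A1, COL1A2 and PDGFRB), and PTPRC, CD3E, PECAM1, VWF, HBB and EPCAM were not among the rows analysed. The 4 summed to 209.6 to 221 CPM in overexpression libraries and 131 to 154 CPM in controls, with COL1A1 at a mean of 64.0 CPM in overexpression and 4.84 CPM in Control. PDGFRB rose as well, by a log2 fold change of 1.16 ± 0.0792. CD68 and COL1A2 did not pass, at −0.01 ± 0.0582 and 0.29 ± 0.534. The 6 liver markers summed to 4737 to 4886 CPM in overexpression libraries and 2325 to 2424 CPM in controls. Their part in the results was not tested.

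Ribosomal protein messenger RNAs took up similar parts of the transcriptome in both groups. Together the 82 genes held 5.02, 5.16 and 5.14% of the counts of named genes in overexpression replicates 1 to 3, and 4.95, 4.69 and 5.24% in Control replicates 1 to 3. The means were 5.11 ± 0.0753% in overexpression and 4.96 ± 0.277% in Control (SD, n = 3 each), and the control values span the overexpression values. The mean difference of 0.148 percentage points was smaller than the SD of the controls. It was 0.0117 without Control replicate 2 and 0.289 without Control replicate 3. On the deposited FPKM, which corrects for gene length, the shares were 11.1 ± 0.153% in overexpression and 10.7 ± 0.711% in Control. The large subunit made up 2.87 ± 0.0537% of counts in overexpression and 2.79 ± 0.101% in Control, and the small subunit 1.85 ± 0.0249% in overexpression and 1.81 ± 0.132% in Control.

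**Figure D1:**
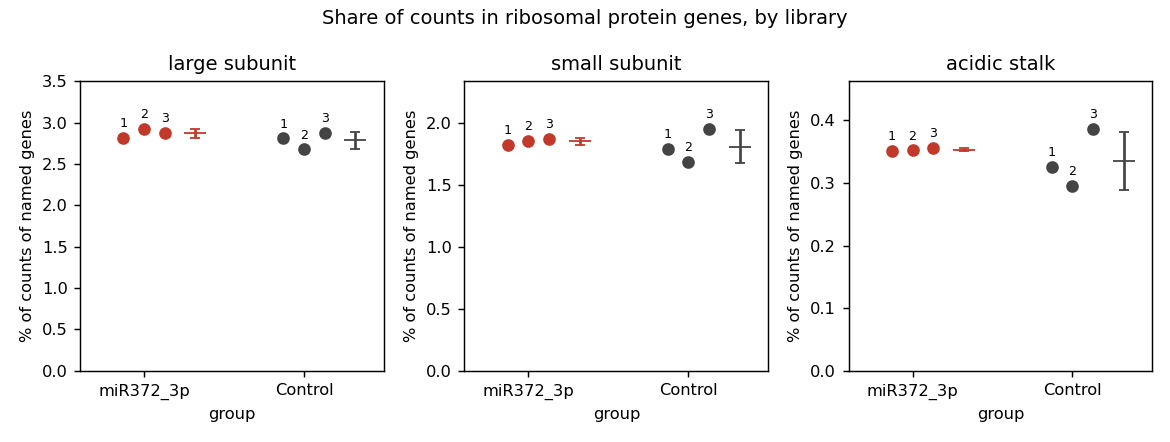
Percent of counts of named genes held by large subunit, small subunit and acidic stalk genes, 1 point per library with its replicate number, miR372_3p in red and Control in dark grey; the cross and bar give the mean and SD (n = 3). In each panel the controls are spread more widely than the overexpression libraries, and for the small subunit and stalk Control replicate 3 is the highest of all 6.

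Changes of single genes were small and mostly within the spread of the libraries. Of the 82 genes, 18 rose (22.0%), 8 fell (9.76%) and 56 did not pass (edgeR quasi-likelihood test, Benjamini-Hochberg adjusted p below 0.05 over all genes). Over all 12396 genes, 54.5% were called, 26.8% as risen and 27.7% as fallen, against 31.7% of the ribosomal protein genes. This order turned without Control replicate 3, when 68.3% of the ribosomal protein genes and 57.3% of all genes were called. The log2 fold changes ran from −0.53 to 0.45 with a median of 0.088, against 0.00125 for all genes, and 61 of the 82 were positive. That median was 0.039 without Control replicate 2. None of the 82 changed by 1.5-fold or more. The groups did not overlap in 22 genes (26.8%), 15 higher and 7 lower in overexpression, against 62.2% of all genes. A p-value below 0.05, with no adjustment stated, stands beside 30 of the 82 in the authors' deposited table.

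**Figure D2:**
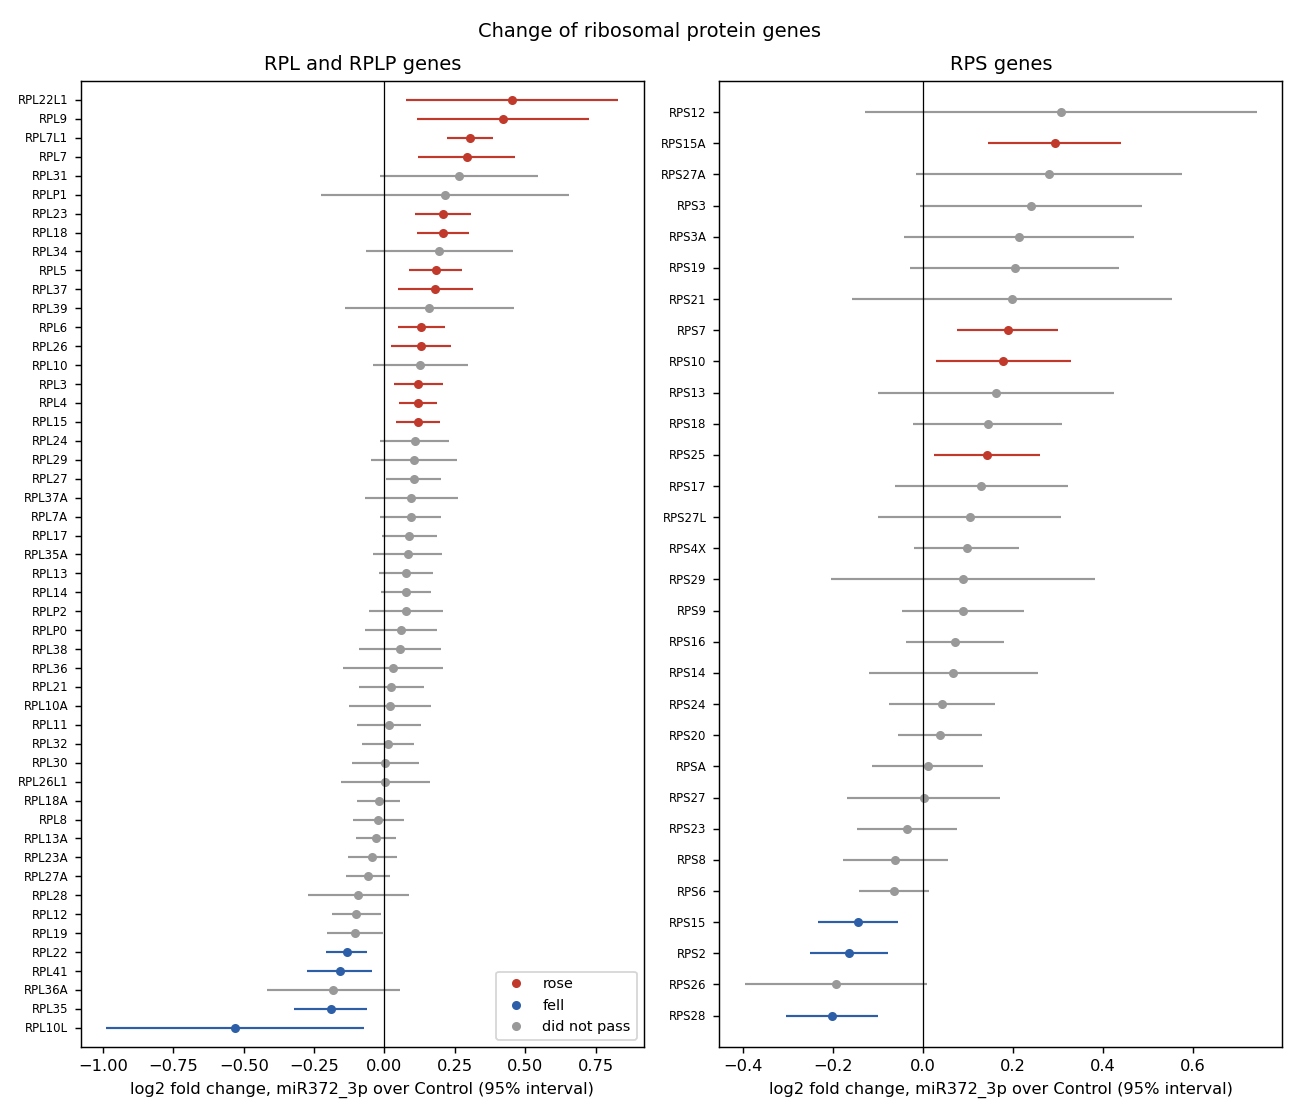
Log2 fold change of miR372_3p over Control for the RPL and RPLP genes (left) and RPS genes (right) reported, with 95% confidence intervals; red rose, blue fell, grey did not pass the test. All points lie between −0.53 (RPL10L) and 0.45 (RPL22L1), and the widest grey intervals belong to RPS12 and RPLP1.

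The large subunit had 11 genes that rose, 3 that fell and 29 that did not pass. RPL9 (ENSG00000163682, chromosome 4, 39452521 to 39458949, GRCh38) was the one that rose most. Its normalised read counts, as CPM (counts scaled to a common library size), were 168, 181 and 183 in overexpression replicates 1 to 3 and 133, 101 and 164 in the controls. Every overexpression library was above every control, with Control replicate 3 closest to them. This was a log2 fold change of 0.42 ± 0.136 (SE, edgeR adjusted p = 0.0246). With 1 library left out it ran from 0.26, without Control replicate 2, to 0.60, and the call was lost without Control replicate 1, miR372_3p replicate 2 or miR372_3p replicate 3 (edgeR adjusted p up to 0.0767).

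RPL7 rose by a log2 fold change of 0.29 ± 0.0771 (SE), with 656, 669.6 and 684 CPM in overexpression and 544, 477 and 619 CPM in Control. RPL23, RPL18 and RPL5 changed by less but with narrower spread, and their groups did not overlap. RPL23, which can bind MDM2, had 836, 907 and 883 CPM in overexpression and 767, 719.9 and 787 CPM in Control (log2 fold change 0.21 ± 0.0448, edgeR adjusted p = 0.00315). RPL18 had 684, 659 and 666 CPM in overexpression and 577, 554 and 609 CPM in Control (0.21 ± 0.0411, edgeR adjusted p = 0.00193). RPL5, which carries the smallest ribosomal RNA of the large subunit into the particle together with RPL11, had 809, 809 and 829 CPM in overexpression and 730.2, 677 and 749 CPM in Control (0.18 ± 0.0420, edgeR adjusted p = 0.00452). Its partner RPL11 did not pass the test, with 552, 634 and 603 CPM in overexpression and 608, 590.1 and 571 CPM in Control and a 95% interval of the log2 fold change of −0.10 to 0.13. The overexpression values of RPL11 lay on both sides of its controls. RPL4, which lines the tunnel through which the new protein leaves, had 1779.6, 1813 and 1794 CPM in overexpression and 1677, 1650 and 1632 CPM in Control. Its groups were far apart relative to their spread, with a log2 fold change of 0.12 ± 0.0307. RPL3, at the catalytic centre, rose by 0.12 ± 0.0387, and the other risen genes of this subunit were RPL6, RPL15, RPL26 and RPL37.

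The 3 large subunit genes that fell were RPL35, RPL41 and RPL22. RPL35, which sits by the exit of the tunnel, had 360, 401 and 380 CPM in overexpression and 449, 454 and 399 CPM in Control, a log2 fold change of −0.19 ± 0.0573. Control replicate 3 lay among the overexpression values. RPL41, a very short basic peptide at the joint of the subunits, had 499.7, 583 and 554 CPM in overexpression and 608, 609.8 and 608 CPM in Control (−0.16 ± 0.0518, edgeR adjusted p = 0.0256). RPL22 had 250.1, 255 and 259 CPM in overexpression and 282, 277 and 279.6 CPM in Control (−0.13 ± 0.0330, edgeR adjusted p = 0.00642). RPL12 lay just outside the threshold, at a log2 fold change of −0.10 with an edgeR adjusted p of 0.0510.

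In the small subunit 5 genes rose, 4 fell and 22 did not pass. RPS15A (ENSG00000134419, chromosome 16, 18781295 to 18790383), mutated in some families with Diamond-Blackfan anaemia, an inherited failure of red cell formation, rose most. It had 215, 228 and 236 CPM in overexpression and 181, 169 and 204 CPM in Control (log2 fold change 0.29 ± 0.0663, edgeR adjusted p = 0.00412). RPS7, which can bind MDM2, rose by 0.19 ± 0.0501, with 576, 585 and 582 CPM in overexpression against 503, 475 and 549.7 CPM in Control. RPS10, one of the proteins marked with ubiquitin when ribosomes collide, rose by 0.18 ± 0.0670, and RPS25 rose by 0.14 ± 0.0522.

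The fallen genes of the small subunit included RPS28, RPS2 and RPS15. RPS28 (ENSG00000233927, chromosome 19, 8321158 to 8323340), near the exit of the messenger RNA, had 105, 113 and 117 CPM in overexpression and 127, 131 and 128 CPM in Control, with no overlap (log2 fold change −0.20 ± 0.0457, edgeR adjusted p = 0.00426). RPS2, at the messenger RNA entrance and the most abundant of the 82 by FPKM, had 2419, 2459 and 2301 CPM in overexpression and 2708, 2753 and 2579 CPM in Control (−0.16 ± 0.0389, edgeR adjusted p = 0.00542). RPS15, needed for export of the small subunit from the nucleus, fell by 0.14 ± 0.0397 on the log2 scale. RPS26 and RPL36A had lower means in overexpression, 185 CPM for RPS26 against 211 CPM in Control and 154 CPM for RPL36A against 174 CPM in Control, but did not pass the test (edgeR adjusted p = 0.0973 and 0.171).

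The acidic stalk, which recruits the elongation factors, had no called gene. RPLP0, its base, had 2466, 2485 and 2409 CPM in overexpression and 2322, 2162 and 2581 CPM in Control. RPLP2 had 492, 543 and 538 CPM in overexpression and 486, 466 and 539 CPM in Control. RPLP1, the partner of RPLP2, had 566, 528 and 604 CPM in overexpression and 436, 341 and 684 CPM in Control, so that one control lay above and the other two below every overexpression library. The 95% interval of its log2 fold change ran from −0.23 to 0.66.

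Of the 5 paralogs, which replace or resemble a standard ribosomal protein, 2 rose, 1 fell and 2 did not pass, and they include both the highest and the lowest log2 fold change of the 82. RPL22L1 (ENSG00000163584, chromosome 3, 170864875 to 170870483) had 21.0, 21.8 and 22.9 CPM in overexpression and 15.8, 11.4 and 20.7 CPM in Control, a log2 fold change of 0.45 ± 0.169 (edgeR adjusted p = 0.0443). In mouse cells the RPL22 protein represses the messenger RNA of this paralog. Here RPL22L1 rose while RPL22 fell, as given above, and a link between them was not tested. The call of RPL22L1 was lost in 5 of the 6 cases with 1 library left out (edgeR adjusted p up to 0.121). RPL7L1 (ENSG00000146223, chromosome 6, 42879618 to 42889925), a relative of RPL7 found in immature large subunits, had 277, 283 and 272 CPM in overexpression and 227, 217 and 230.1 CPM in Control. Its log2 fold change of 0.30 ± 0.0369 had the smallest adjusted p of the 82 genes (edgeR, 8.9e-05), and its parent RPL7 rose by a similar 0.29.

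RPL10L (ENSG00000165496, chromosome 14, 46651010 to 46651821), a copy of RPL10 without introns that is known from the testis, was the lowest of the 82 by FPKM, with a mean of 3.49, against 543 FPKM for RPL10. It had 3.35, 2.41 and 2.07 CPM in overexpression and 3.39, 3.69 and 4.26 CPM in Control. The log2 fold change was −0.53 ± 0.204 and the edgeR adjusted p 0.0499, with 1 overexpression library close to the lowest control. RPL10 itself had a log2 fold change of 0.13 ± 0.0754, which did not pass. Reads of a paralog so like its abundant parent may be shared between them, and the sources used here do not describe how such reads were counted. RPL26L1 had 26.0, 28.7 and 24.6 CPM in overexpression and 26.2, 25.3 and 27.7 CPM in Control, a log2 fold change of 0.0024 with a 95% interval of −0.16 to 0.16. RPS27L had a log2 fold change of 0.10 with an interval of −0.10 to 0.31, and its parent RPS27 one of 0.0025 with an interval of −0.17 to 0.17.

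By FPKM, a level per transcript length, the 5 most abundant members were RPS2, RPL13A, RPLP0, RPL19 and RPS16, with means over the 6 libraries of 2325, 2120.2, 1979.7, 1833 and 1445. The median member had 470.0. The 5 least abundant were RPL10L, RPS27L, RPL22L1, RPL26L1 and RPL7L1, at 3.49, 4.90, 14.6, 33.8 and 51.7 FPKM. By FPKM every paralog thus lay below every standard ribosomal protein gene, the lowest of which was RPL37 at 56.5 FPKM. In CPM this did not hold for RPL7L1, with means of 277 in overexpression and 225 in Control, against 105 and 91.5 for RPL34. The annotated transcripts taken for RPL37 and RPL7L1 are 7686 and 4476 bases long. The 82 genes are spread over 21 chromosomes, and 28 of them hold 60 small nucleolar RNA genes in their bounds. In GENCODE 29, 77 have at least 1 named pseudogene, 1150 in all. Counts of such genes are uncertain where reads match a pseudogene.

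The controls differed among themselves in an order that most of the genes shared. Control replicate 3 was the highest of the 3 controls in 58 of the 82 genes (70.7%), against 37.8% of all genes, and Control replicate 2 the lowest in 57 (69.5%), against 36.2%. In 60 genes (73.2%; all genes 40.9%) the range of the controls on the log2 scale was larger than the change between the groups. The median ratio of the highest to the lowest library was 1.08 in overexpression and 1.14 in Control, and over all genes it was 1.09 in overexpression and 1.12 in Control. RPS12 (ENSG00000112306, chromosome 6, 132814441 to 132817564), of the beak of the small subunit, had 385, 366 and 428 CPM in overexpression and 286, 224 and 443 CPM in Control. Its log2 fold change of 0.31 had a 95% interval of −0.13 to 0.74 (edgeR adjusted p = 0.208). The ratio of Control replicate 3 to Control replicate 2 was 2.01 for RPLP1, 1.98 for RPS12, 1.81 for RPL22L1, 1.67 for RPS21 and 1.63 for RPL9.

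The opposite order held for a smaller group. RPL36A, RPS26 and RPL28 were highest in Control replicate 2 and lowest in replicate 3, with ratios of replicate 3 to 2 of 0.731, 0.739 and 0.779. RPS26 had 181, 194 and 179.8 CPM in overexpression and 209, 244 and 180.5 CPM in Control. Among the 18 genes that rose Control replicate 3 was the highest control in 14, and among the 8 that fell in 1.

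**Figure D3:**
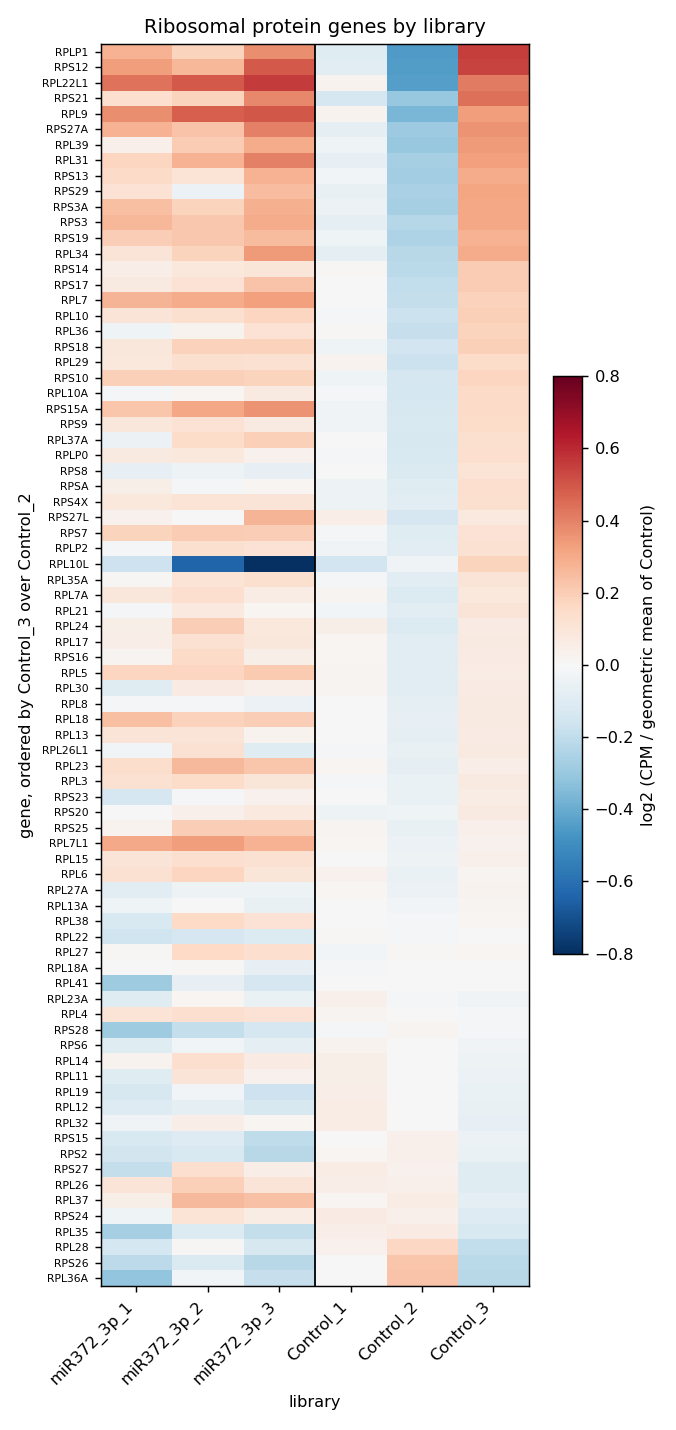
Log2 ratio of CPM to the geometric mean of the 3 controls for the ribosomal protein genes reported (rows, ordered by Control replicate 3 over replicate 2) in the 6 libraries (columns), red higher and blue lower. Down the rows the colours of Control replicates 2 and 3 are opposed, from RPLP1 and RPS12 at the top to RPS26 and RPL36A at the bottom.

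Leaving out 1 library at a time changed the calls accordingly. Without Control replicate 3, 44 of the 82 genes rose and 12 fell, where 28.6% and 28.7% of all genes did. Of the 18 and 8 called with all libraries, 16 and 7 remained called in the same direction. The large subunit then had 21 risen and 7 fallen genes, the small subunit 18 and 5, and all 3 stalk genes rose. RPS12 then had a log2 fold change of 0.62 (edgeR adjusted p = 0.000157), RPLP1 of 0.54, RPS27A, which is fused to ubiquitin, of 0.48, and RPS3, of the messenger RNA entrance, of 0.41. RPS26 and RPL36A fell by 0.30 and 0.29 on the log2 scale. With any other single library left out the counts ran from 8 to 15 risen and from 3 to 8 fallen. The shares of all genes called in those cases are not given here, so these counts have no background beside them. Whichever library was left out, RPL4, RPL5, RPL7, RPL7L1, RPL18, RPL23, RPS7 and RPS15A rose and RPL22, RPS2 and RPS28 fell. The calls of RPL22L1, RPL10L and RPL26 were each lost in 5 of the 6 cases, with edgeR adjusted p-values of up to 0.121, 0.16 and 0.168. Those of RPS10 (5 of 6), RPL35, RPL37 and RPS25 (4 of 6), RPL3, RPL9 and RPL41 (3 of 6), RPL15 (2 of 6), and RPL6 and RPS15 (1 of 6) were also lost in part. The log2 fold change ran from 0.27 to 0.68 for RPL22L1 and from 0.12 to 0.27 for RPS10, the lower value without Control replicate 2 and the higher without Control replicate 3 in both. It was 0.083 for RPL26 without Control replicate 3 and −0.10 for RPL41 without miR372_3p replicate 1.

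**Figure D4:**
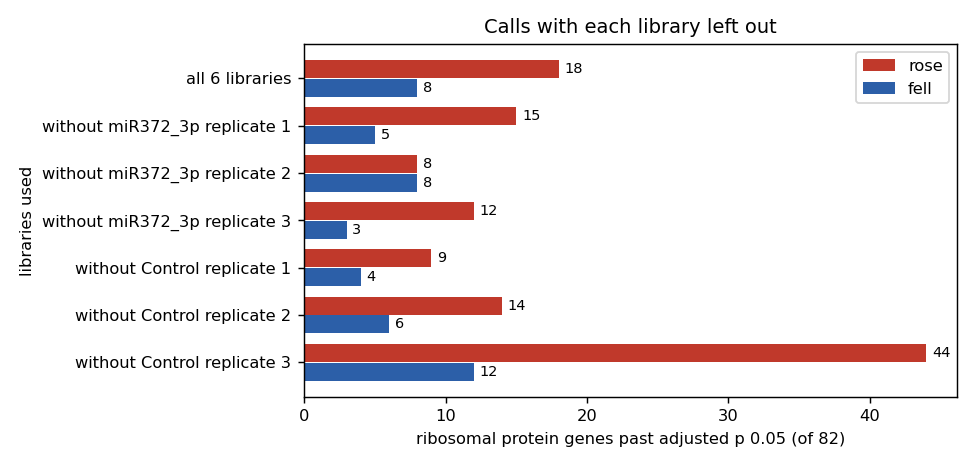
Number of the 82 ribosomal protein genes that rose (red) or fell (blue) at an edgeR adjusted p below 0.05, with all 6 libraries and with each library left out in turn. The count of risen genes is 18 with all libraries, 8 to 15 in the other cases and 44 without Control replicate 3.

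Transcript length also moved the counts. The median transcript of the 82 genes was 1010.5 bases long and that of all genes 3211. After a correction of each library for its trend with length, 36 members rose and 2 fell (background 27.4% and 27.2%). Of the 8 fallen genes 6 no longer passed, RPS2, RPS15, RPL35 and RPL41 among them, and RPL22 and RPS28 still fell.

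Some of these genes carry matches to the miR-372-3p seed. In the longest annotated 3′ UTR of each gene (GENCODE 29), 23 of the 82 (28.0%) held at least the 6-base match GCACTT, against 40.4% of 12198 other genes, and the median 3′ UTR was 500.0 bases long in the members against 1391 in the others. None of the 8 fallen members held a match, and 7 of the 18 risen ones did. Among the other genes 1513 of 3423 fallen and 1349 of 3287 risen ones held a match. Without Control replicate 3, 2 of 12 fallen members and 11 of 44 risen ones held one. RPL37 was the one gene with the full match AGCACTTA, in a 3′ UTR of 7242 bases, and it had 301, 349 and 342 CPM in overexpression and 295, 304 and 276 CPM in Control. Overexpression replicate 1 lay below the highest control. The log2 fold change of 0.18 ± 0.0592 passed the test (edgeR adjusted p = 0.0262), but the call was lost without Control replicate 1, Control replicate 3, miR372_3p replicate 2 or miR372_3p replicate 3 (edgeR adjusted p up to 0.119). Of 13 members whose best match was AGCACTT, 4 rose and none fell, and 6 rose and 1 fell without Control replicate 3. Of 2606 other genes with that best match 708 rose and 778 fell. For the other genes with AGCACTTA, 221 of 493 fell and 103 rose. For 3 of the members called as risen, 1 site each is printed with the match in capitals (GRCh38, GENCODE 29). RPL37 holds 5 matches of at least 6 bases in that 3′ UTR and RPS15A holds 2.
RPL37 (chr5:40826468-40826496, minus strand): ggctgaattgAGCACTTAacaattctcca
RPS15A (chr16:18783742-18783770, minus strand): attttggtaaAGCACTTtatgagctgaca
RPL4 (chr15:66498815-66498843, minus strand): aggtgggcagAGCACTTgagccaatgagt

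The longest annotated 3′ UTR need not be the one that JHH-4 cells use, and the deposited counts do not tell isoforms apart. A match is a description of the sequence and not of binding.

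The naming rule leaves out 4 measured genes of the ribosome. None of the 4 passed the test (edgeR), and leaving out Control replicate 3, using DESeq2 or correcting for gene length gave 1 call, risen, among them. FAU, a fusion of a ubiquitin-like protein with a small subunit protein, had a log2 fold change of 0.16 ± 0.0744. RPL36AL was at 0.015 ± 0.0834, and RACK1, the signalling scaffold on the small subunit, at −0.06 ± 0.0341.

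Of 21 other messenger RNAs known for a TOP start, 9 rose and 3 fell, where 26.8% of all genes rose and 27.7% fell, with a median log2 fold change of 0.11. PABPC1, the poly(A)-binding protein, rose by 0.42 ± 0.0609, EIF4B, a helper of the initiation helicase, by 0.29 ± 0.0329 and EEF2, which moves the ribosome along, by 0.28 ± 0.0325. EEF1B2, TPT1 and BTF3 fell by 0.19 ± 0.0411, 0.12 ± 0.0405 and 0.12 ± 0.0425 on the log2 scale. The count of fallen genes was 1 without miR372_3p replicate 1, miR372_3p replicate 3 or Control replicate 1. For this and the later lists, shares of all genes with a library left out are given only for Control replicate 3. The other such counts have no background beside them and are not read as a trait of a list.

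The machinery that makes ribosomes had more risen than fallen genes in each list. For ribosomal RNA transcription and processing, 16 of 35 rose and 3 fell, where 26.8% and 27.7% of all genes did. POLR1B, a subunit of RNA polymerase I, rose by 0.30 ± 0.0394, NOLC1, a nucleolar scaffold, by 0.35 ± 0.0343 and the helicase DDX21 by 0.33 ± 0.0346. UBTF, which opens the ribosomal DNA for polymerase I, fell by 0.40 ± 0.0613 on the log2 scale, and NHP2, a protein of the particles that modify uridines of ribosomal RNA, by 0.43 ± 0.0451. The count of risen genes was 9 without miR372_3p replicate 2 and 10 without Control replicate 1.

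For large subunit assembly and export, 19 of 31 rose and 2 fell, where 26.8% and 27.7% of all genes did. The median log2 fold change was 0.16. The count of risen genes was 14 without miR372_3p replicate 2. It was 20 without Control replicate 3, where 28.6% of all genes rose. MDN1, a giant ATPase that pulls assembly factors off the particle, had 101, 100.5 and 99.8 CPM in overexpression and 74.9, 77.4 and 73.0 CPM in Control (log2 fold change 0.42 ± 0.0410, edgeR adjusted p = 2.16e-05). NMD3, the export adaptor of the large subunit, rose by 0.31 ± 0.0522. EFL1, the GTPase that works with SBDS to take EIF6 off the finished subunit, had 14.0, 14.8 and 16.1 CPM in overexpression and 21.1, 24.7 and 20.7 CPM in Control, a log2 fold change of −0.56 ± 0.0893. SBDS and EIF6 did not pass, at −0.09 ± 0.0459 and −0.05 ± 0.0475.

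For small subunit assembly, 10 of 20 rose and 1 fell, where 26.8% and 27.7% of all genes did. RIOK3, a kinase that binds small subunits, had 66.6, 64.7 and 72.1 CPM in overexpression and 38.8, 41.0 and 38.6 CPM in Control. This log2 fold change of 0.78 ± 0.0543 was larger than that of any ribosomal protein gene. PNO1, a late assembly factor, rose by 0.57 ± 0.0921 and its partner NOB1, the nuclease that makes the final cut in the small subunit RNA, by 0.34 ± 0.0430. Of 15 chaperones and importins of single ribosomal proteins, 7 rose and 2 fell, against the same shares of all genes. Among them were TSR2, the carrier of RPS26 (0.27 ± 0.0516), and the importin IPO4 (−0.31 ± 0.0659). The risen count of the 15 was 3 without miR372_3p replicate 1 or 2 and 4 without Control replicate 1.

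Regulators of ribosomal protein messenger RNAs were measured in 24 cases, of which 12 rose and 2 fell, where 26.8% and 27.7% of all genes did. Without miR372_3p replicate 1 or Control replicate 1, 9 of them rose. MYC, a transcription factor for ribosome production, had 448, 466 and 449.6 CPM in overexpression and 274, 303 and 248 CPM in Control (log2 fold change 0.72 ± 0.0630, edgeR adjusted p = 9.66e-06). LARP4, which protects poly(A) tails, rose by 0.70 ± 0.0450. MXD1 rose by 0.70 ± 0.143, TSC1 by 0.33 ± 0.0564, LARP1 by 0.13 ± 0.0382 and MTOR by 0.11 ± 0.0376. RPS6KB2 fell by 0.17 ± 0.0484 on the log2 scale. EIF4EBP1 and EIF4EBP2, brakes on initiation that mTOR releases, moved in opposite directions, at −0.34 ± 0.0606 and 0.63 ± 0.0408.

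**Figure D5:**
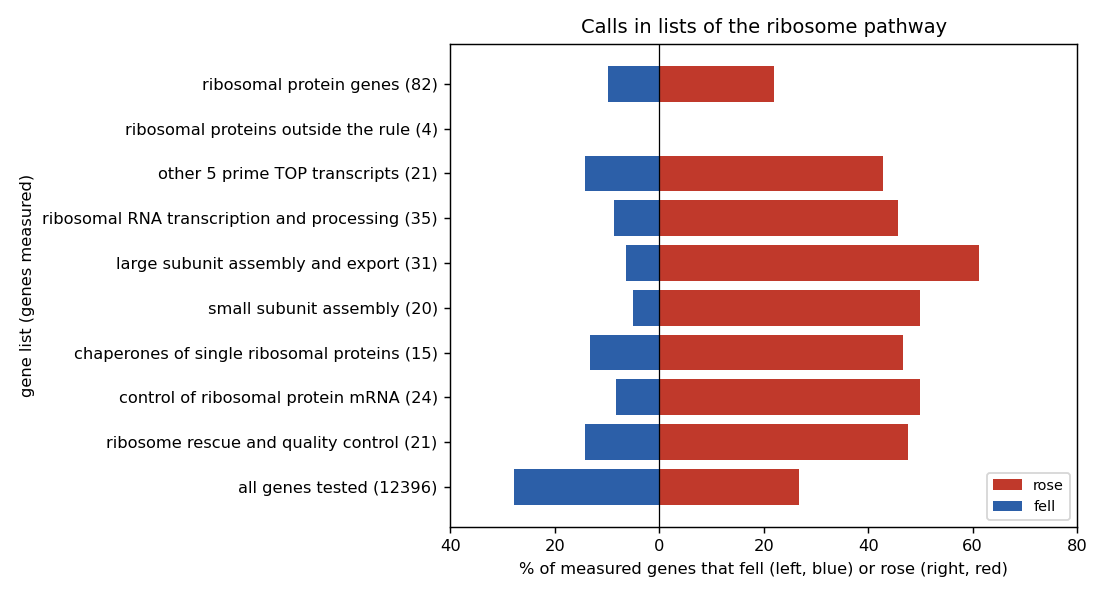
Percent of the measured genes of each list that rose (red, right) or fell (blue, left) at an edgeR adjusted p below 0.05, with the number of genes measured in brackets. The bar of the 82 ribosomal protein genes (22.0% rose, 9.76% fell) is shorter on the right than that of each assembly list, and the bottom bar gives all genes (26.8% and 27.7%).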

How the data were processed

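RNA of JHH-4 cells was column-purified and 1 µg per library was prepared with a NEBNext Ultra kit, which does not mark strand, per the labels' protocols. The deposited table holds whole-number counts and FPKM per library, with a p-value and a log2 fold change of the authors' comparison, per the file headers. The submitters' processing notes name HISAT2 2.0.4, StringTie 2.2.1, DESeq2 1.38.3 and GRCh38 (hg38), with no role for any of them, and the counting of reads is not described in the sources used here. The authors' FPKM values were used for levels only, and the authors' p-value and log2 values only as named.

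Of 14006 rows, 1610 are loci with no gene name and 2.64 to 3.63% of counts; neither library sizes nor tests include them. Of the 12396 named genes, filterByExpr removed 0. All rows hold at least 208 counts over the 6 libraries, so weakly expressed genes are not analysed here. The test was the quasi-likelihood F-test of edgeR 4.0.16 under R 4.3.3 (TMM, 2 groups of 3 libraries, Benjamini-Hochberg over all genes, threshold 0.05). CPM are counts per 1e+06 of the TMM-scaled library size, and ± beside a log2 fold change is its standard error. Alternatives were DESeq2 1.42.0, other scaling and filters, length and GC corrections, the replicate number as a block and each library left out. The fit was tested on simulated data.

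Libraries were grouped by title. Between replicates, chi-square divided by its degrees of freedom was 6.86 to 38.6, above sampling noise, so none was merged. Every per-sample column had a sample. Positions and 3′ UTRs come from GENCODE 29 (GRCh38), and start sites and the microRNA from RefSeq (GRCh38.p14).

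The members, lists and tests were chosen with earlier results of these data known. Named in full are the called members of largest change in each direction, paralogs and their parents, the stalk, RPL5 and RPL11, the extremes of FPKM, members of smallest change, and leading genes of each list. Other genes named, such as RPS12, RPS21, RPS26, NMD3, LARP1, MTOR, TSC1, RPS6KB2, EIF4EBP1, EIF4EBP2, SBDS and EIF6, were chosen after their values were seen. Some members and list genes are counted but not reported here by name.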

Additional observations from a re-analysis of the deposited data

How the results depend on the processing

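Counts of called ribosomal protein genes depended on the libraries and on length. With all libraries 18 rose and 8 fell. The gene length correction gave 36 risen and 2 fallen. Leaving out 1 library at a time gave 8 to 44 risen and 3 to 12 fallen, the extremes being 8 risen without miR372_3p replicate 2, 44 risen without Control replicate 3 and 3 fallen without miR372_3p replicate 3; without Control replicate 1 there were 9 and 4, and without miR372_3p replicate 1 there were 15 and 5. DESeq2, other size factors, filters, unnamed loci in the library size and the GC correction, which was chosen after seeing the data, gave 14 to 18 risen and 7 to 10 fallen. Among these alternatives, shares of all genes are given only for the length correction and for leaving out Control replicate 3. The median log2 fold change of the members was positive throughout, from 0.039 without Control replicate 2 to 0.134 with the length correction.

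The correlations of deviations between libraries gave no sign of pairing by replicate number. Deviations of same-numbered libraries correlated at −0.136, −0.052 and 0.103, and those of differently numbered ones at −0.150 to 0.217. With 3 libraries a group this cannot show that the libraries are unpaired. RPS12, RPLP1 and RPS27A were highest in replicate 3 and lowest in replicate 2 in both groups. RPL9, RPL22L1 and RPS21 were also highest in replicate 3 of both groups, but lowest in overexpression replicate 1 and Control replicate 2. Over the members, replicate 2 had the highest median in overexpression, 0.122, and the lowest in Control, −0.083 (log2 CPM less Control mean). No correlation for the members alone is given here. With the replicate number as a block, 28 members rose and 11 fell, against 18 and 8 in the main fit. The share of all genes called with the block is not given here, so the counts are not read as a trait of the members. Of the 4 measured ribosomal proteins outside the naming rule, 1 was called as risen with the block and none in the main fit. DESeq2, the length correction and leaving out Control replicate 3 also gave 1 risen call among them.

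Some genes with changes near 0 that did not pass changed sign. Leaving out 1 library at a time gave log2 fold changes of −0.062 to 0.051 for RPL26L1, −0.068 to 0.091 for RPS27, −0.032 to 0.069 for RPL11, −0.033 to 0.051 for RPL30 and −0.065 to 0.068 for RPL36AL. With no TMM factor RPL26L1, RPS27 and RPL30 were at −0.0067, −0.0057 and −0.0056. RPS27 was at −0.0021 with the replicate block and −0.00077 with the GC correction, and RPL13A at 0.029 with the length correction. The cause was not tested. At 3 libraries a group, changes of a few percent in these genes lie within the spread of the controls.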

Other observations

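Genes that act on stalled ribosomes were measured in 21 cases, of which 10 rose and 3 fell, where 26.8% and 27.7% of all genes did. ANKZF1, which frees the unfinished protein from the large subunit, rose by a log2 fold change of 0.66 ± 0.0518 (SE, 3 libraries a group, edgeR adjusted p = 4.59e-06). OTUD3, which removes ubiquitin from small subunit proteins, rose by 0.60 ± 0.0749. ZNF598, the ligase that marks RPS10 on collided ribosomes, rose by 0.33 ± 0.0411, and LTN1, the ligase that marks the unfinished protein, by 0.16 ± 0.0491. ASCC3, the helicase that splits collided ribosomes, fell by 0.47 ± 0.05 on the log2 scale while its partner TRIP4 rose by 0.42 ± 0.0638. TCF25 and GIGYF2 fell by 0.24 ± 0.0443 and 0.20 ± 0.0524 on the log2 scale. Without Control replicate 3, 11 rose and 4 fell, where 28.6% and 28.7% of all genes did. Without miR372_3p replicate 3, 8 rose and 5 fell. Genes of this list other than ANKZF1 and OTUD3 were chosen after their values were seen.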
